A study of Homo sapiens with 6 samples.

Results

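The genes described here are the ligands, receptors and main signalling genes of the Wnt pathway: 55 genes of the 57773 in the count table. They were chosen by symbol, and the rule used no measured value, but earlier results of these data were known when it was written. The choice took in every WNT, FZD, SFRP1 to SFRP5, DKK1 to DKK4 and DVL gene listed, together with LRP5, LRP6, AXIN1, AXIN2, APC, CTNNB1, GSK3B, the 4 TCF/LEF genes, RNF43, ZNRF3, LGR4 and LGR5. By role they were 19 ligands, 10 Frizzled receptors, 2 co-receptors, 8 secreted inhibitors, 3 Dishevelled genes, 4 genes of the destruction complex, beta-catenin itself, 4 TCF/LEF factors and 4 genes of receptor turnover. RNA was sequenced from HEK293, a transformed human line derived from embryonic kidney that also carries neuronal transcripts. The study has 6 libraries. Of these, 3 are labelled as HEK293 with knockdown of TRDMT1, a methyltransferase that methylates cytosine in transfer RNA, and 3 as HEK293 control. The means of the knockdown, the nature of the control and whether the replicates came from separate cultures are not given in the sources used here, so p-values measure only the spread between these libraries.

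Wnt proteins are secreted lipid-bearing ligands that bind a Frizzled receptor and the co-receptor LRP5 or LRP6 on the cell surface. Without a ligand, a complex built on AXIN1 or AXIN2 and APC holds the kinase GSK3B, which marks beta-catenin for degradation. With a ligand, Dishevelled proteins draw AXIN to the membrane, beta-catenin builds up and enters the nucleus, and it acts there with TCF/LEF factors on target genes. SFRP proteins bind ligands outside the cell, DKK1 and DKK2 bind the LRP co-receptors, and RNF43 and ZNRF3 remove Frizzled receptors from the surface unless R-spondins, bound by LGR4 or LGR5, hold them back. HEK293 cells are widely used to assay the pathway because they respond to added Wnt.

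The coding sequences of APC, LRP5, FZD10 and SFRP5, which were called, and of LRP6, which was not, had unlike base composition. A stretch of each follows. Each is the middle 120 bases of the longest coding exon, 5′ to 3′ on the coding strand, with adenines in capitals. They were read from the GRCh38 genome with GENCODE annotation, a later build than the hg19 the deposited counts were made on. APC (chr5:112840778-112840897, plus strand, exon 16) had the adenine-rich coding sequence, at 34.4% A over its whole length. LRP5 (chr11:68347985-68348104, plus strand, exon 2) had 19.6% and its paralog LRP6 (chr12:12181182-12181301, minus strand, exon 6) had 26.9%. FZD10 (chr12:130163754-130163873, plus strand, exon 1) had 18.1% and SFRP5 (chr10:97771510-97771629, minus strand, exon 1) had 17.9%. Stretches of the called genes AXIN1, FZD4 and LGR5 were read in the same way and are not printed. That of LGR5, which fell, had 14.2% A, and those of AXIN1 and FZD4, which rose, had 29.2% and 22.5%. Over the whole coding length LGR5 had 24.3% and AXIN1 22.4%. The stretches therefore do not show that adenine share follows direction.
APC: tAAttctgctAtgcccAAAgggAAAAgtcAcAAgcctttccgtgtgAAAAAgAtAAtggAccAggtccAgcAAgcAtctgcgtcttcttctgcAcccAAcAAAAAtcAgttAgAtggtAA
LRP5: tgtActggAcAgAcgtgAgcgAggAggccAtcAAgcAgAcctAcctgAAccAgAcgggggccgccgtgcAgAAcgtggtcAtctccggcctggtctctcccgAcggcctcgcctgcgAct
LRP6: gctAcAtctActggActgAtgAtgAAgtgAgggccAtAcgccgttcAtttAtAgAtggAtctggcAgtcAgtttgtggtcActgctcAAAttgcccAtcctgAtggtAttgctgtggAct
FZD10: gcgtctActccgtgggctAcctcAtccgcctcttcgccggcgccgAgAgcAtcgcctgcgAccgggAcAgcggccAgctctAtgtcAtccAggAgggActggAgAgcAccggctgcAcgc
SFRP5: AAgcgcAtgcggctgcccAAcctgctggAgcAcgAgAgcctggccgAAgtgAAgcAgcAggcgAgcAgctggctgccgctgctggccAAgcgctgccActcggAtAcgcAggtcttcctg

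TRDMT1, the targeted gene, did not have lower RNA in the libraries labelled knockdown. Its RPKM (reads scaled to gene length and library total) was 0.58, 0.58 and 0.58 in them and 0.36, 0.36 and 0.28 in the libraries labelled control, so the groups did not overlap and the labelled knockdown was the higher. The log2 fold change was 0.61 ± 0.21 (SE) with an edgeR adjusted p of 0.0705, and the exact two-sided permutation test gave p = 0.1, the smallest that 3 libraries against 3 allow. The second name that the descriptions give each library (293C for the labelled knockdown, 293TK for the labelled control) also reads the other way round from the titles. Every direction here is therefore that of the libraries labelled knockdown relative to the libraries labelled control. Total counts were 36455950 to 40088993 in the labelled knockdown and 24776040 to 26802182 in the labelled control. The library labelled control replicate 2 stood apart: its chi-square per degree of freedom against the other controls was 196 and 260, against 24.4 between those controls and 3.59 to 6.31 within the labelled knockdown. HEK293 markers were found in all 6 libraries: VIM at 227 to 456 RPKM, EPCAM at 38.4 to 96.7, NEFL at 36.3 to 60.3 and CDH2 at 20.2 to 44.4. NEFM (10.6 to 26.0), GATA3 (4.90 to 11.5) and LHX1 (1.66 to 5.80) were lower, and PAX2 was lowest at 0.91 to 1.85. Of these markers EPCAM was called lower (edgeR adjusted p = 0.0168) and GATA3 higher (0.0321) in the labelled knockdown. The blood genes PTPRC and CD3E reached at most 0.03 RPKM and the fibroblast and liver genes DCN, LUM and ALB at most 0.61. LUM, with 16 to 49 counts per library, was called lower in the labelled knockdown (edgeR adjusted p = 0.0364). ALB did not pass (0.0515).

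Of the 55 Wnt genes, 48 passed the filter on low counts and 13 of these (27.1%) had an edgeR quasi-likelihood adjusted p under 0.05, against a background of 24.0% of the 17805 genes tested. Among the members 9 rose (18.8%) and 4 fell (8.33%). Over all genes 9.29% rose and 14.7% fell. The median log2 fold change was 0.22 over the 48 members and -0.04 over all genes tested, and 34 of the 48 members had a positive value. Normalised counts (CPM, scaled to the library total times its TMM factor) did not overlap between the groups for 29 members, 19 higher and 10 lower. The background was 49.9% of all genes (23.9% higher, 26.0% lower). With both directions together, the share of members past the threshold was near that of all genes. By direction it was larger than that of all genes for rises and smaller for falls, which was not tested. In bulk RNA, fewer cells expressing a gene and less RNA per cell cannot be told apart. FZD10, SFRP5, LRP5 and APC held their call in all 15 alternative analyses. FZD1, TCF7, LGR5 and SFRP2 passed neither in edgeR with plain library totals nor in limma on RPKM (adjusted p from 0.0547 to 0.223).

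**Figure D1:**
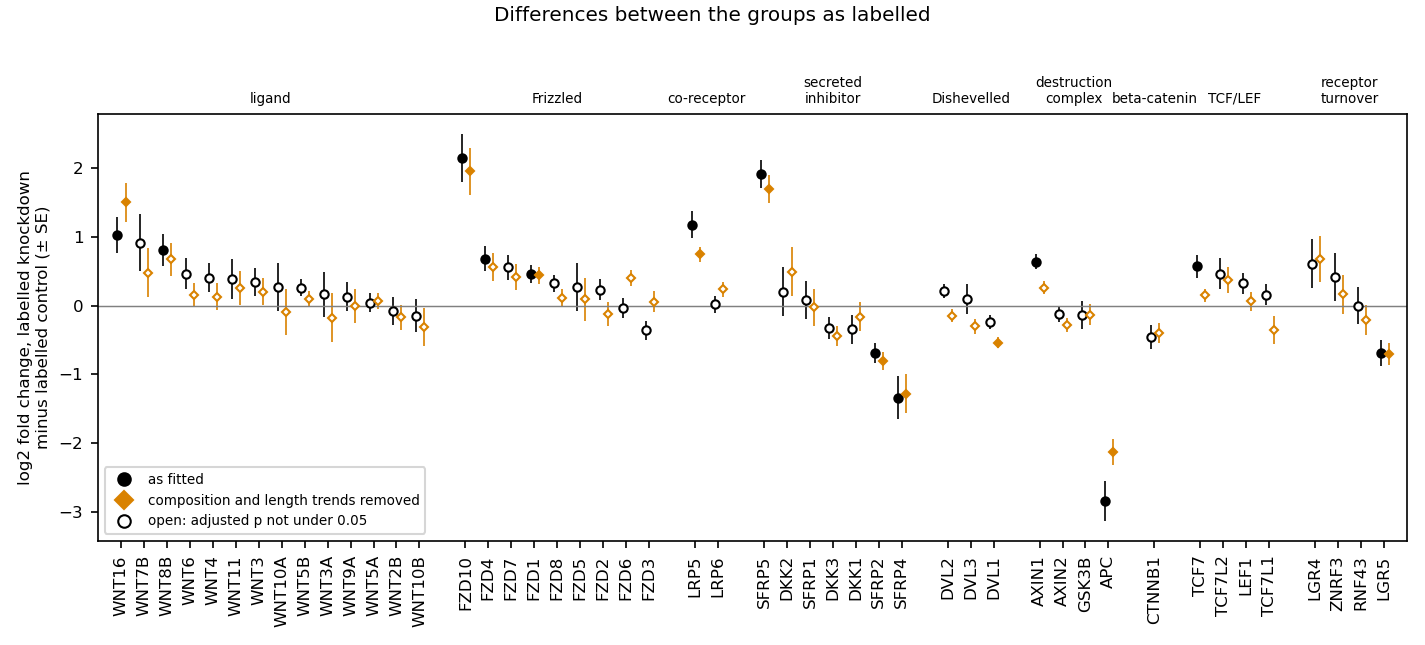
Log2 fold change (y axis, ± SE) of each of the 48 tested Wnt genes, ordered by role, between the libraries labelled knockdown and control (n = 3 each). Black circles are the values as fitted, orange diamonds those after base composition and length trends were removed, and open symbols did not pass an adjusted p of 0.05; APC at -2.85 and FZD10 at 2.14 are the ends of the range.

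The library labelled control replicate 2 carried less RNA of many of these genes than its fellow controls. It had the lowest CPM of the 3 controls for 34 of the 48 members (70.8%), against 44.2% of all genes, and the highest for 8. Its median log2 difference from the mean of the other controls was -0.36 over the members and -0.02 over all genes. The coefficient of variation of CPM had a median of 5.18% over the members in the labelled knockdown and 21.1% in the labelled control, against 6.02% and 24.3% over all genes. Without that library 26 of the 48 members passed, 18 higher and 8 lower, with a background of 48.5% of all genes (22.9% higher, 25.6% lower). All 13 calls were among those 26. The 13 additional members were DVL1, DVL2, FZD3, FZD7, FZD8, TCF7L2, CTNNB1, GSK3B, WNT5B, WNT6, WNT7B, WNT11 and LGR4. Leaving out labelled knockdown replicate 1, 2 or 3 gave 4, 5 and 4 called members (background 6.99%, 7.37% and 6.67%), leaving out control replicate 1 gave 5 (11.0%) and control replicate 3 gave 11 (29.2%). With the full set of libraries DESeq2 called 15 members (32.4%), limma 10 and 9 at pseudocounts of 1 and 0.1 (21.5% and 19.9%), plain library totals 9 (19.9%), no filter on low counts 9 (11.7%) and a replicate block 6 (16.7%, of which 6.21% higher and 10.5% lower). Members called lower numbered 2 in each of these but DESeq2, with 4, and the background of genes called lower was 8.58% and 8.59% in limma, 9.26% with plain totals and 6.4% without a filter. The share of members called was lowest where that of all genes was low and highest without control replicate 2, where that of all genes was highest.

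**Figure D2:**
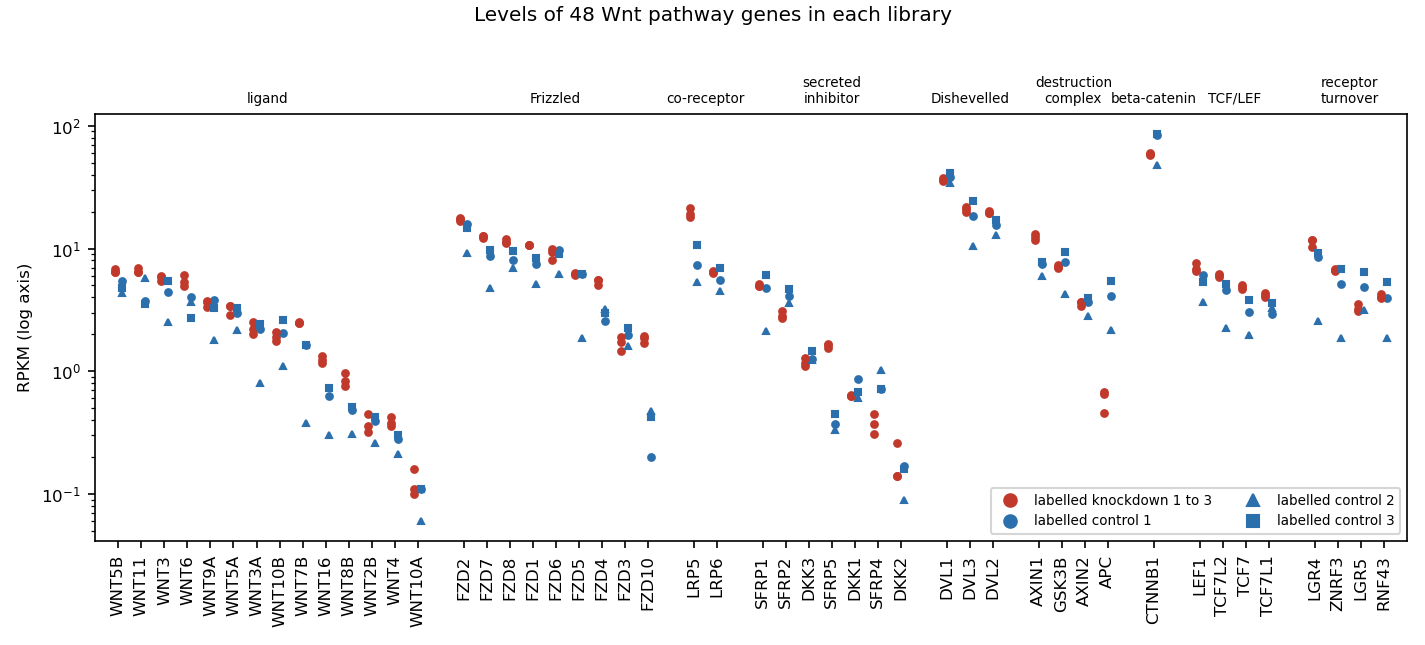
RPKM (y axis, log scale) of each of the 48 tested Wnt genes in each library, ordered by role and by mean level. Red circles are the libraries labelled knockdown and blue symbols the 3 libraries labelled control; CTNNB1 has the highest levels, and triangles mark control replicate 2, which has WNT7B at 0.38 RPKM beside 1.63 and 1.64 in the other controls.

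The ligands were expressed at low to moderate levels, and 2 of the 14 tested rose while none fell (14.3% called, against 24.0% of all genes, 9.29% higher and 14.7% lower). WNT5B (mean over 6 libraries 5.71 RPKM), which signals mainly without beta-catenin, was followed by WNT11 (5.48), WNT3 (4.93) and WNT6 (4.48), and the ranges of these neighbours overlapped. Summed over all 19 ligands, RPKM was 41.0 ± 1.2 (SD, n = 3) in the labelled knockdown and 29.4 ± 4.75 in the labelled control, and the groups did not overlap (exact permutation p = 0.1, and adjusted p = 0.12 over the 6 family sums compared). WNT8A, WNT2, WNT7A, WNT1 and WNT9B were not tested, with largest counts of 10, 5, 6, 2 and 5 in any library. WNT1, the founding member of the family, stayed under the 3 counts taken as the limit of detection, so it was not detectable at this depth.

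WNT16, a ligand known for its role in bone, had RPKM of 1.16, 1.24 and 1.34 in the labelled knockdown and 0.63, 0.30 and 0.73 in the labelled control. The groups did not overlap, and control replicate 2 was the lowest library. For WNT16 the log2 fold change was 1.03 ± 0.26 with an edgeR adjusted p of 0.0318, and after removal of composition trends it was 1.50 (adjusted p = 0.0146). WNT8B, a ligand of the developing forebrain, had RPKM of 0.83, 0.76 and 0.97 against 0.48, 0.31 and 0.51. For WNT8B the log2 fold change was 0.81 ± 0.23 (edgeR adjusted p = 0.0436), from counts of 59 to 82 per library against 16 to 29. It was 0.67 after removal of composition trends, where the call ended (adjusted p = 0.0878). Both calls ended when any labelled knockdown library or control replicate 1 was left out, and that of WNT8B also without control replicate 3 (edgeR adjusted p from 0.0840 to 0.126 for WNT16 and from 0.0513 to 0.180 for WNT8B).

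WNT7B and WNT11 rested on control replicate 2 in opposite ways. WNT7B had RPKM of 2.48, 2.46 and 2.54 in the labelled knockdown and 1.63, 0.38 and 1.64 in the labelled control, with replicate 2 far below the other controls. Its log2 fold change was 0.91 ± 0.41 (edgeR adjusted p = 0.147), and 0.54 (adjusted p = 0.00269) without that library. WNT11 had RPKM of 6.44, 6.89 and 6.48 against 3.71, 5.8 and 3.53, with replicate 2 the highest control. In normalised CPM (14.6, 15.6 and 14.6 against 8.96, 17.2 and 8.25) replicate 2 lay above every labelled knockdown library, so the groups overlapped. Its log2 fold change was 0.39 ± 0.28 (edgeR adjusted p = 0.349), and 0.80 (adjusted p = 0.000324) without it.

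Among the Frizzled receptors 3 of the 9 tested rose and none fell, beside 9.29% higher and 14.7% lower over all genes. FZD2 had the highest mean level (15.2 RPKM), followed by FZD7 (10.2), FZD8 (9.84), FZD1 (8.83) and FZD6 (8.71), each overlapping its neighbour. Summed over the 10 receptors, RPKM was 76.2 ± 2.09 in the labelled knockdown and 54.5 ± 13.0 in the labelled control (SD, n = 3; exact permutation p = 0.1). FZD9 was not tested, with at most 8 counts.

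FZD10 (ENSG00000111432), a receptor of restricted expression in adult tissue, had the largest rise of the members. Its counts were 231, 205 and 245 in the labelled knockdown and 17, 38 and 37 in the labelled control. RPKM was 1.93, 1.70 and 1.86 against 0.20, 0.47 and 0.42, with a wide gap between the groups. Mean CPM was 4.37-fold higher, and the log2 fold change was 2.14 ± 0.35 with an edgeR adjusted p of 0.00746 (1.95 and 0.0123 after removal of composition trends). FZD10 nevertheless made up only 2.40 ± 0.21% of summed Frizzled RPKM in the labelled knockdown, against 0.73 ± 0.43% in the labelled control.

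FZD4, the receptor of norrin in retinal vessels, had RPKM of 5.54, 5.52 and 5.01 in the labelled knockdown and 2.57, 3.23 and 2.98 in the labelled control. The groups did not overlap, and the log2 fold change was 0.68 ± 0.18 (edgeR adjusted p = 0.0369). Exons of FZD4 share up to 1255 bases with PRSS23 on the opposite strand, which had up to 5560 counts, and whether the counting used strand is not given, so the value of FZD4 is uncertain. FZD1, a widely expressed receptor, had RPKM of 10.66, 10.67 and 10.77 against 7.42, 5.18 and 8.30, with a log2 fold change of 0.46 ± 0.13 (edgeR adjusted p = 0.0413). The call of FZD1 ended without any 1 labelled knockdown library or control replicate 1 (edgeR adjusted p from 0.103 to 0.153), and that of FZD4 without any of these or without control replicate 3 (0.0711 to 0.133). FZD4 also did not pass after removal of composition trends (adjusted p = 0.0971), with a log2 fold change of 0.56 beside 0.68 as fitted.

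The remaining receptors did not pass. FZD7 had RPKM of 12.17, 12.75 and 12.77 in the labelled knockdown and 8.70, 4.81 and 9.72 in the labelled control, which did not overlap, with a log2 fold change of 0.55 ± 0.19 and an edgeR adjusted p of 0.0709 (0.38 and 0.00436 without control replicate 2). FZD5 was even between the groups apart from 1 library: 6.17, 6.07 and 6.37 against 6.17, 1.85 and 6.16, the low value being control replicate 2.

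The co-receptors LRP5 and LRP6, close paralogs that both bind Wnt and pass its signal to AXIN, had unlike values. LRP5 (ENSG00000162337) RPKM was 19.17, 18.14 and 21.37 in the labelled knockdown and 7.37, 5.30 and 10.76 in the labelled control, with no overlap. Mean CPM was 2.26-fold higher, with a log2 fold change of 1.18 ± 0.19 and an edgeR adjusted p of 0.00751. LRP6 RPKM was 6.51, 6.28 and 6.39 against 5.56, 4.49 and 6.90, and the groups overlapped. For LRP6 the log2 fold change was 0.02 ± 0.12 (edgeR adjusted p = 0.933). LRP5 made up 75.3 ± 1.46% of the RPKM of the pair in the labelled knockdown and 57.4 ± 3.41% in the labelled control, with no overlap (exact permutation p = 0.1, adjusted p = 0.2 over 40 shares compared). After removal of composition trends the log2 fold change of LRP5 was 0.74 (adjusted p = 0.00831) and that of LRP6 was 0.24 (adjusted p = 0.162), so the distance between them narrowed.

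**Figure D3:**
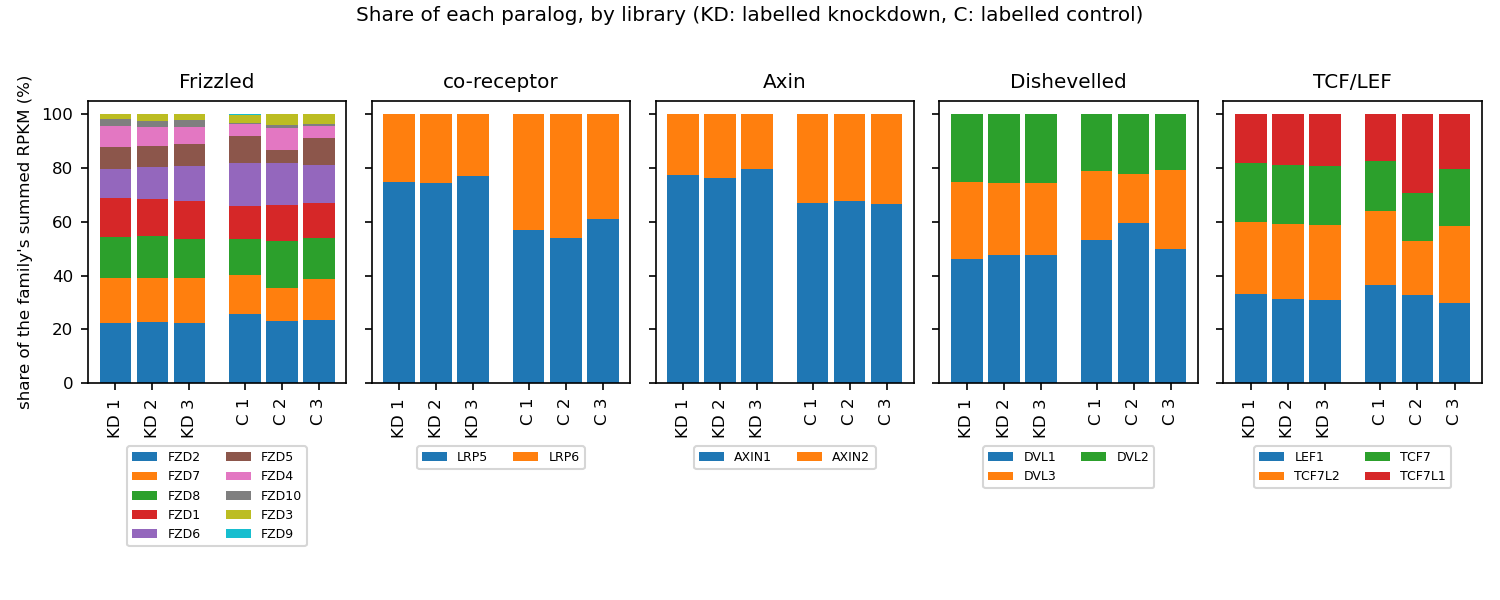
Stacked bars of the share of a family's summed RPKM taken by each member (y axis, %), 1 bar per library (KD, labelled knockdown; C, labelled control) and 1 panel per family. LRP5, the lower segment of the second panel, takes 75.3% of the co-receptor pair on average in the labelled knockdown and 57.4% in the labelled control.

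Of the secreted inhibitors 1 of 7 tested rose and 2 fell, beside 9.29% higher and 14.7% lower over all genes. All 3 were SFRP genes, whose proteins carry a Frizzled-like ligand-binding domain. SFRP5 (ENSG00000120057) counts were 104, 110 and 123 in the labelled knockdown and 18, 15 and 22 in the labelled control, and RPKM was 1.55, 1.63 and 1.67 against 0.37, 0.33 and 0.45. The groups lay far apart and both were tight, including control replicate 2. Mean CPM was 3.76-fold higher, with a log2 fold change of 1.91 ± 0.20 (edgeR adjusted p = 0.00159), and 1.69 after removal of composition trends (adjusted p = 0.00406).

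SFRP2, the second most abundant inhibitor after SFRP1, had RPKM of 2.81, 3.11 and 2.71 in the labelled knockdown and 4.07, 3.63 and 4.65 in the labelled control, with no overlap. Its log2 fold change was -0.69 ± 0.15 (edgeR adjusted p = 0.0181). SFRP4 had RPKM of 0.45, 0.37 and 0.31 against 0.72, 1.03 and 0.72, from 44 to 92 counts per library, and here control replicate 2 was the highest. The log2 fold change was -1.34 ± 0.31 (edgeR adjusted p = 0.0229), and -1.01 (adjusted p = 0.00378) without that library. Both calls ended without any 1 labelled knockdown library or control replicate 1 (edgeR adjusted p from 0.0521 to 0.112 for SFRP2 and from 0.0507 to 0.108 for SFRP4). SFRP1, with the highest mean of the inhibitors (4.67 RPKM), had a log2 fold change of 0.08 ± 0.28. DKK1, DKK2 and DKK3 did not pass (edgeR adjusted p from 0.169 to 0.700), and DKK4 had at most 1 count.

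The 3 Dishevelled genes, which relay the signal from Frizzled, were abundant and none passed. DVL1 had the highest level (37.1 RPKM on average), apart from DVL3 (19.3) and DVL2 (17.4), whose ranges overlapped. Summed Dishevelled RPKM was 76.8 ± 1.76 in the labelled knockdown and 70.8 ± 12.5 in the labelled control (exact permutation p = 0.6). DVL1 RPKM was 35.20, 35.94 and 37.63 against 38.54, 34.35 and 41.04, which overlapped through control replicate 2. Normalised CPM was 116, 118 and 123 against 135, 148 and 139 and did not overlap. For DVL1 the log2 fold change was -0.24 ± 0.11 (edgeR adjusted p = 0.136). After removal of composition trends it was -0.54 (adjusted p = 0.00878). Its transcript has 17.2% adenine.

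The destruction complex held the largest fall and 1 rise. APC (ENSG00000134982), the scaffold that presents beta-catenin for degradation and is lost in most colorectal tumours, had counts of 210, 296 and 338 in the labelled knockdown and 1357, 665 and 1812 in the labelled control. RPKM was 0.46, 0.65 and 0.68 against 4.11, 2.15 and 5.42. Every labelled control library, replicate 2 included, lay above every labelled knockdown library. Mean CPM was 6.98 ± 1.34 against 50.2 ± 16.4, or 7.19-fold lower, with a log2 fold change of -2.85 ± 0.29 and an edgeR adjusted p of 0.00141. After removal of composition trends the log2 fold change was -2.13 ± 0.19 (adjusted p = 0.00195), and leaving out single libraries gave -3.06 to -2.60. APC2, a relative expressed mainly in the nervous system, rose from 0.44 ± 0.08 RPKM in the labelled control to 0.87 ± 0.06 (log2 fold change 0.82 ± 0.18, edgeR adjusted p = 0.0180), but 0.24 with an adjusted p of 0.392 once composition trends were removed. The call of APC2 also ended without any 1 labelled knockdown library (0.0716 to 0.0962).

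AXIN1, the constitutive scaffold, had RPKM of 12.38, 11.73 and 13.12 in the labelled knockdown and 7.47, 5.97 and 7.82 in the labelled control, with no overlap. For AXIN1 the log2 fold change was 0.64 ± 0.11 (edgeR adjusted p = 0.00758). After removal of composition trends it was 0.26 (adjusted p = 0.0920), and the call also ended without labelled knockdown replicate 1 or 3 (0.0532 to 0.0623). AXIN2, which is itself a common target of beta-catenin signalling, had RPKM of 3.66, 3.69 and 3.40 against 3.67, 2.83 and 3.95. These overlapped, while normalised CPM (18.0, 18.0 and 16.6 against 19.2, 18.1 and 20.0) did not, and the log2 fold change was -0.12 ± 0.12 (edgeR adjusted p = 0.487). AXIN1 made up 77.6 ± 1.71% of the RPKM of the AXIN pair in the labelled knockdown and 67.1 ± 0.70% in the labelled control (exact permutation p = 0.1, adjusted p = 0.2). GSK3B RPKM was 7.35, 7.10 and 6.90 against 7.73, 4.26 and 9.35, with a log2 fold change of -0.14 ± 0.20 (edgeR adjusted p = 0.637).

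CTNNB1, which encodes beta-catenin, was the most abundant member and its test turned on a single library. RPKM was 59.58, 57.84 and 58.92 in the labelled knockdown and 84.98, 47.69 and 86.07 in the labelled control. In RPKM control replicates 1 and 3 lay above the labelled knockdown and replicate 2 below it. Normalised CPM, which the test uses, was 372, 360 and 365 against 564, 388 and 554, so there replicate 2 too lay above every labelled knockdown library. The log2 fold change was -0.46 ± 0.18 (edgeR adjusted p = 0.103), and -0.61 (adjusted p = 0.000121) without control replicate 2.

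The 4 TCF/LEF factors were expressed within a narrow range, LEF1 highest at a mean of 6.03 RPKM and TCF7L1 lowest at 3.72, and neighbours overlapped. Their summed RPKM was 22.1 ± 0.85 in the labelled knockdown and 15.3 ± 3.58 in the labelled control, without overlap (exact permutation p = 0.1). TCF7 RPKM was 5.03, 4.69 and 4.89 against 3.06, 1.99 and 3.82, with a log2 fold change of 0.57 ± 0.17 (edgeR adjusted p = 0.0492). After removal of composition trends it was 0.15 (adjusted p = 0.287), and the call also ended without any 1 labelled knockdown library or control replicate 1 (0.134 to 0.160). Exons of TCF7 share up to 210 bases with the opposite-strand gene SKP1 (up to 12784 counts), so the value of TCF7 is uncertain. LEF1, TCF7L2 and TCF7L1 had log2 fold changes of 0.32, 0.46 and 0.16 and did not pass.

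TCF-type motifs were counted in the 250 bases before the start sites of the RefSeq promoter table (GRCh38.p14), which matched 39 of the 55 genes in 47 windows. For 18 of the 39 genes the first 30 transcribed bases were found in a GENCODE transcript. Start sites of the others were not matched in this way. Of the 13 windows of called members, 1 held a motif, at TCF7. APC and TCF7 had more than 1 window each, and the called members FZD10 and LGR5 had none, so they were not searched. The motifs searched, on both strands, were CTTTGAA with its variants CTTTGAT as well as CTTTGTA along with CTTTGTT, and 3 of the 47 windows (6.38%) held one, against 12.0% of all 35116 windows. They belonged to TCF7, TCF7L2 and DKK1, and of these only TCF7 passed the expression test. The windows of the members had a median GC content of 68.8%, against 58.0% over all windows. The TCF7 window lies at chr5:134123368-134123617 on the plus strand, before the second start site, with the match, on the opposite strand, in capitals 50 bases before the start. A match is a description of the letters only.
TCF7: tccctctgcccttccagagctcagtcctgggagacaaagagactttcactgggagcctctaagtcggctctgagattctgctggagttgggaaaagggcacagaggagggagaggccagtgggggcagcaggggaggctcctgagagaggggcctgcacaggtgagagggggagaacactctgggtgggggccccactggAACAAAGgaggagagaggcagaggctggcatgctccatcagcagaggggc

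Of the genes that control receptor turnover, LGR5 fell and the other 3 did not pass. LGR5, a marker of intestinal stem cells, had RPKM of 3.19, 3.11 and 3.55 in the labelled knockdown and 4.83, 3.14 and 6.39 in the labelled control. These overlapped through control replicate 2, although normalised CPM did not. The log2 fold change was -0.69 ± 0.19 (edgeR adjusted p = 0.0401), and -0.84 (adjusted p = 0.000416) without replicate 2. The call ended without any other 1 library (edgeR adjusted p from 0.0570 to 0.150). Its paralog LGR4 was the most abundant of the group and had the opposite sign: RPKM was 10.22, 11.71 and 11.73 against 8.53, 2.58 and 9.22. For LGR4 the log2 fold change was 0.61 ± 0.36 (edgeR adjusted p = 0.247), and 0.27 (adjusted p = 0.0305) without replicate 2. ZNRF3 and RNF43, the ubiquitin ligases, had log2 fold changes of 0.41 ± 0.35 and 0.00 ± 0.27. Exons of RNF43 share bases with SUPT4H1 on the same strand. Those of the ligand WNT2B share up to 2594 with ST7L on the opposite strand, so the values of RNF43 and WNT2B are uncertain.

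A further 82 genes of the pathway were listed by role, of which 78 were tested. Of these, 15 rose and 5 fell (25.6% called, against 24.0% of all genes), with a median log2 fold change of 0.28. Over all genes 9.29% rose and 14.7% fell, and the counts of each list stand beside these shares. Among ligand-release and co-receptor genes 4 of 13 rose, among them PTK7, a pseudokinase co-receptor (26.7 ± 0.76 against 13.8 ± 3.08 RPKM, log2 fold change 0.79 ± 0.13, edgeR adjusted p = 0.00650), and GPC4, a glypican (0.79 ± 0.13, 0.00717), whose call ended without labelled knockdown replicate 1 (0.0501). Among the additional inhibitors 2 of 11 rose, the DKK receptors KREMEN1 (14.9 ± 0.58 against 8.01 ± 2.81 RPKM) and KREMEN2 (1.81 ± 0.14 against 0.95 ± 0.20). Both KREMEN calls ended without any 1 labelled knockdown library or control replicate 1 (edgeR adjusted p from 0.0970 to 0.112 and from 0.0623 to 0.119).

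In the cytoplasmic list 2 of 20 rose and 2 fell (20.0% called, against 24.0% of all genes, 9.29% higher and 14.7% lower). CSNK1G3, a casein kinase that acts on LRP6, fell from 8.44 ± 2.19 to 3.84 ± 0.13 RPKM (log2 fold change -1.29 ± 0.15, edgeR adjusted p = 0.00221). RNF146, the ligase that removes AXIN, fell by 0.80 on the log2 scale (edgeR adjusted p = 0.00571). NKD1, an antagonist of Dishevelled that is also a target of the pathway, had RPKM of 2.06, 1.85 and 1.80 against 0.58, 0.27 and 1.08, a log2 fold change of 1.43 ± 0.37 (edgeR adjusted p = 0.0336). The NKD1 call ended without any 1 labelled knockdown library or control replicate 1 (0.101 to 0.121).

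Among 14 nuclear cofactors 4 rose and 1 fell, beside 9.29% higher and 14.7% lower over all genes. The corepressor TLE1 had RPKM of 32.62, 33.03 and 33.19 in the labelled knockdown and 17.32, 12.44 and 19.61 in the labelled control (log2 fold change 0.84 ± 0.12, edgeR adjusted p = 0.00465). TLE4, of the same family, rose by 0.55 (edgeR adjusted p = 0.0114, but 0.0663 to 0.0810 without any 1 labelled knockdown library), while TBL1XR1, a subunit of corepressor complexes, fell by 1.09 on the log2 scale (edgeR adjusted p = 0.00521). Of 10 planar polarity genes PRICKLE1 (0.43 ± 0.12, edgeR adjusted p = 0.0356) and VANGL2 (0.54 ± 0.15, 0.0397) rose and DAAM1 fell (-1.02 ± 0.21, 0.0158), and each of these 3 calls ended without any 1 labelled knockdown library or control replicate 1 (0.0747 to 0.154). Of 13 direct targets of beta-catenin and TCF tested, NKD1 and SOX9 rose and CD44 fell. CD44, a surface glycoprotein, had RPKM of 3.39, 3.30 and 3.23 against 7.56, 4.56 and 6.0 (log2 fold change -1.03 ± 0.15, edgeR adjusted p = 0.00480). SOX9 had 14.8 ± 0.19 against 7.67 ± 2.93 RPKM (edgeR adjusted p = 0.0394, and 0.0733 to 0.128 without any 1 labelled knockdown library or control replicate 1). After removal of composition trends the calls of KREMEN2, RNF146, VANGL2, DAAM1 and SOX9 also ended (edgeR adjusted p from 0.0504 to 0.127).

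Differences of the Wnt genes went with the base composition of their transcripts, as they did over all genes. Across the 48 members Pearson's r between the adenine share and the log2 fold change was -0.45 (Spearman -0.38), and -0.33 without APC. Over 17302 genes it was -0.41. These are correlations across genes measured in the same 6 libraries, given as a description. The genes were divided by adenine share into 4 groups of equal size. In the group with least adenine 17.1% rose and 3.17% fell, and of the 20 members there 5 rose and none fell. In the group with most adenine 2.15% rose and 36.7% fell, and of the 6 members there WNT16 rose and APC fell. When trends in composition and length were removed from each library, 10 members passed, 5 higher and 5 lower, against a background of 20.3% (9.12% higher, 11.1% lower). Of the 13 calls, 9 were among these 10, and DVL1 was the addition. The part of base composition in the remaining differences was not tested.

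**Figure D4:**
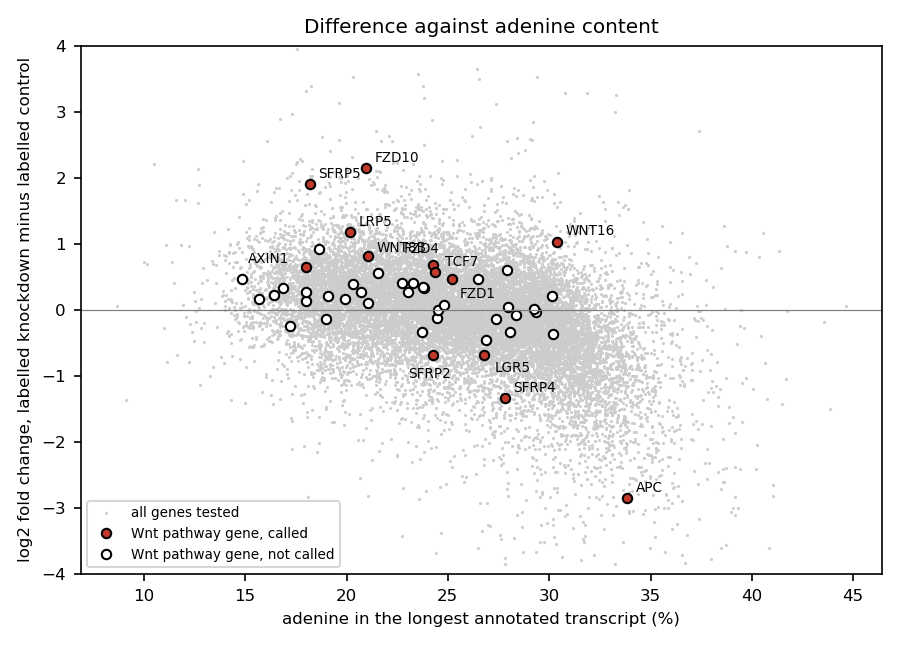
Log2 fold change (y axis, labelled knockdown minus labelled control) against the adenine share of the longest annotated transcript (x axis, %). Grey points are 17302 genes, of which 21 lie beyond the axis; red points are the called Wnt genes and open points the other Wnt genes, with APC at 33.9% adenine at the lower right and SFRP5 at 18.2% at the upper left.

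Median differences varied between chromosomes, and some members had the sign of their chromosome median while others had the opposite sign. The median log2 fold change of tested protein-coding genes was 0.31 on chromosome 11, which carries LRP5, FZD4, LGR4, WNT11 and DKK3, and 0.53 on chromosome 16, which carries AXIN1. It was -0.29 on chromosome 3, which carries CTNNB1, GSK3B, DVL3 and WNT5A. On chromosome 5 (APC, TCF7) it was -0.15, on chromosome 10 (SFRP5, WNT8B) -0.08 and on chromosome 12 (FZD10, LGR5) -0.12. It was -0.06 on chromosome 7 (FZD1, WNT16, SFRP4) and -0.16 on chromosome 4 (SFRP2). TCF7, SFRP5, WNT8B, FZD10, FZD1 and WNT16 rose on chromosomes with a negative median. The values of AXIN1 and FZD4 were 0.64 and 0.68 beside chromosome medians of 0.53 and 0.31, while those of LRP5, APC, FZD10 and SFRP5 lay farther from theirs. The part of these chromosome medians in the results was not tested.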

How the data were processed

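The authors deposited 1 table of read counts and RPKM values per gene for 6 libraries, 3 in each labelled group. Per the labels' protocols, total RNA was depleted of ribosomal RNA, treated with an RNA methylation (bisulfite) kit and made into stranded libraries; whether the libraries counted here went through the conversion step is not given. Per the submitters' processing notes, the build was hg19 and the tools named include DESeq2 1.6.3, edgeR 3.4.6 and the counter HTSeq 0.6.1; their roles, the aligner and the strand setting of counting are not given in the sources used here. The deposited RPKM values equal the deposited counts per length and total count to within 0.006.

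Counts of all genes passing filterByExpr (17805) were tested with edgeR 4.0.16 (R 4.3.3; TMM scaling, robust quasi-likelihood, Benjamini-Hochberg adjustment, threshold 0.05) between the labelled groups, with no covariate. CPM values are TMM-scaled, and folds are ratios of mean CPM. RPKM, which is not TMM-scaled, served for levels and shares, so groups can overlap in one unit and not in the other. The pipeline was tested on simulated counts with the same dispersion in every gene and library. These counts lacked the wider spread of the labelled control libraries, so the test does not cover that spread. Alternatives were DESeq2 1.42.0, limma 3.58.1 on log2(RPKM + 1) and log2(RPKM + 0.1), other scalings and filters, a replicate block, each library left out, and removal of smooth trends (mgcv 1.9.3). The trends were in A, C and G content of the longest GENCODE transcript (97.2% of tested genes matched) and in the deposited exonic length. Genes named are TRDMT1, the called members, the most abundant and most different member of each role, untested members, and the 2 called genes of lowest p per further list and direction; other members were named after their values were seen. Members and lists were chosen with earlier results of these data known. Totals of 24776040 to 40088993 counts put 3 counts, the detection limit used, at 0.0748 to 0.121 CPM; this covers counting error only.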

Additional observations from a re-analysis of the deposited data

How the results depend on the processing

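Of 195 values of the 13 called Wnt genes under 15 alternatives each, 130 kept their direction and their side of the threshold and 65 kept their direction only; none turned. Leaving out single libraries gave 4 to 26 called members (3 to 18 higher, 1 to 8 lower), 6 to 44 called further genes (2 to 35 higher, 4 to 9 lower), and 1191 to 9063 called genes in all (305 to 4279 higher, 886 to 4784 lower), the highest each time without control replicate 2. The genes called lower were 1649 with plain library totals (1888 higher, and a median log2 fold change over all genes of 0.13 in place of -0.04), 1527 with limma at a pseudocount of 1 (2299 higher) and 1530 at 0.1 (2021 higher), beside 2613 lower and 1654 higher as fitted. Members called lower were 2 with plain totals, 2 with either limma setting and 2 without a filter on low counts; further genes called lower were 3 with either limma setting; members called higher were 5 after removal of composition trends. The replicate numbers did not pair the libraries (correlations of deviations from the group means of -0.04, 0.06 and 0.00 for equal numbers); a replicate block gave 6 called members, 4 higher and 2 lower. For TRDMT1 the log2 fold change was 0.80 with plain totals, 0.64 with DESeq2, 0.25 and 0.66 with limma at pseudocounts of 1 and 0.1, and 0.79 without control replicate 2, all past the threshold; over single libraries left out it ranged from 0.45 to 0.79. Uncalled members turned sign under some alternatives, and the cause was not tested. Their log2 fold changes were DVL3 -0.30, DVL2 -0.15, FZD2 -0.12, FZD6 0.40, FZD3 0.057, TCF7L1 -0.35, WNT9A -0.0072, WNT3A -0.18, WNT10A -0.098, RNF43 -0.21 and SFRP1 -0.026 after removal of composition trends; FZD6 0.13, AXIN2 0.041 and WNT2B 0.075 with plain totals; FZD6 0.13, GSK3B 0.056, AXIN2 0.040, WNT10B 0.030 and WNT2B 0.022 with limma at a pseudocount of 1; FZD6 0.14, GSK3B 0.073, AXIN2 0.052, WNT10B 0.070 and WNT2B 0.071 with limma at a pseudocount of 0.1; FZD6 0.038 without a filter; RNF43 -0.011 with at least 10 counts in every library of a group. With single libraries left out, the log2 fold changes of members that turned sign ranged as follows: DVL3 -0.096 to 0.32, FZD6 -0.11 to 0.095, FZD5 -0.060 to 0.52, LRP6 -0.028 to 0.11, GSK3B -0.33 to 0.038, WNT9A -0.052 to 0.35, WNT5A -0.021 to 0.12, WNT3A -0.13 to 0.37, WNT10B -0.35 to 0.067, WNT2B -0.22 to 0.022, RNF43 -0.25 to 0.29, SFRP1 -0.19 to 0.34 and DKK2 -0.14 to 0.38.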
